A study of Homo sapiens with 4 samples.

Results

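The assembly factors of the respiratory chain are the nuclear-encoded proteins that build its complexes without staying in the finished enzymes. The set was defined as a list of 48 gene symbols, and a member was taken from the expression table where its name matched and its value reached 0.5 FPKM (fragments scaled by transcript length and by sequencing depth) in at least 2 libraries. All 48 listed genes met this rule, out of 13291 named rows that were tested. SCO2 stood on 2 rows, of which the row with the higher mean was used. By the complex they serve, 15 members belonged to complex I, 4 to complex II, 6 to complex III, 20 to complex IV and 3 to complex V.

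The respiratory chain carries electrons from NADH and succinate to oxygen and pumps protons across the inner mitochondrial membrane, and complex V uses the proton gradient to make ATP. Its complexes are put together stepwise from subunits encoded in the nucleus and in mitochondrial DNA. Assembly factors hold intermediates together, insert hemes, copper, flavin and iron-sulfur clusters, and move subunits through the membrane. Loss of a single factor often leaves its complex unfinished, and many of these genes are known from inherited mitochondrial disease. Lactate dehydrogenase A, the product of LDHA, converts pyruvate to lactate in the cytosol and so competes with the mitochondria for pyruvate.

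RNA-Seq was performed in B-CPAP cells, an established line from papillary thyroid carcinoma (PTC). The study compared 2 control libraries (shGFP, a hairpin against green fluorescent protein) with 2 LDHA knockdown libraries (shLDHA). The methods describe lentiviral delivery of the LDHA hairpin and selection of infected cells with puromycin, and no untreated library was analysed here. The labels and methods do not say whether both knockdown libraries carried the same hairpin, or whether libraries of a group came from separate cultures. The p-values therefore cover the spread of these 4 libraries, which may be technical.

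LDHA was the check of the labels. Its deposited FPKM was 1186 and 1183 in the control pair, and 176 and 168 in the knockdown libraries. After scaling between libraries by a trimmed mean of M values (TMM), the level was 1052 ± 4.79 (SD, n = 2) in the control and 193 ± 13.7 (SD, n = 2) in the knockdown, a log2 fold change of -2.44 (SE 0.08, limma adjusted p = 0.00756). The depth, estimated from the steps between low FPKM values with an upper limit set on the search, was between 18200000 and 24800000 fragments per library. The knockdown libraries stood further apart from each other than the control libraries, with a median absolute log2 difference over all tested rows of 0.22 against 0.12. Rows without a gene name held 3.53% of the FPKM total in knockdown library 2 and 0.361% to 0.440% in the other libraries. Protein genes of mitochondrial DNA held 12.5% and 12.1% of the total in the control pair, against 8.04% and 5.47% in knockdown libraries 1 and 2. Of 11 markers of thyroid or papillary carcinoma cells, 5 (PAX8, FOXE1, KRT8, KRT18 and KRT7) were at 1 FPKM or more in every library, and the defining genes NKX2-1, TG, TSHR and SLC5A5 were under 0.5 FPKM throughout, as were KRT19 and EPCAM. Of 8 markers of fibroblasts, leukocytes and endothelial cells, 6 were under 0.5 FPKM in every library. PDGFRB, at 6.57 to 16.95 FPKM, and COL1A1, at 0.78 to 3.12 FPKM, were detected. The summed level of the 8 markers was 17.1 and 18.0 FPKM in the control and 9.23 and 9.81 FPKM in the knockdown. The part of such cells in the results was not tested.

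Of the 48 assembly factor genes, 11 rose in LDHA knockdown cells, none fell and 37 did not pass the threshold (limma on log2(FPKM + 0.1), adjusted p under 0.05 over all tested rows). At an unadjusted p under 0.05, 15 were higher and 5 lower, against 25.2% and 21.4% of all tested rows. The 11 were NDUFAF3, ECSIT and DMAC1 for complex I, SDHAF1 and SDHAF3 for complex II, UQCC3 for complex III, SURF1, SCO2, COX14 and COX16 for complex IV, and ATPAF2 for complex V. Their share, 22.9% of the members, compares with 18.1% of all tested rows called higher and 12.9% called lower. The median log2 fold change was 0.33 over the members and -0.004 over all tested rows, and the member median became -0.007 without scaling and -0.18 at equal library totals. Both knockdown libraries lay above both control libraries for 22 members (45.8%, against 36.4% of all rows), below both for 9 members (18.8%, against 36.1% of all rows), and the groups overlapped for 17. At a limit of 5 FPKM in 2 libraries, 12 of 40 members rose and 1 fell, against 29.9% and 18.6% of all rows. In such bulk samples, a change in the share of some cells and a change in the RNA made per cell cannot be told apart.

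The calls needed both control libraries. When 1 library was left out, the spread was read only from the group that kept 2. Without a knockdown library that was the control pair. Over the members its libraries differed by a median of 0.13 (absolute log2), against 0.29 for the knockdown pair. Without control library 1 or without control library 2, none of the 13291 rows passed the limma threshold, and 10 or 11 members, respectively, had an unadjusted p under 0.05 (3419 and 3693 of all rows). Without knockdown library 1, 23 members rose, the 11 among them, and 3 fell, against 20.6% and 13.2% of all rows. Without knockdown library 2, 10 members rose and 1 fell, against 19.0% and 12.3% of all rows. There 8 of the 11 remained, while ATPAF2, COX16 and SDHAF3 lost their calls, the gene that fell was TMEM70, and the median was 0.11.

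**Figure D1:**
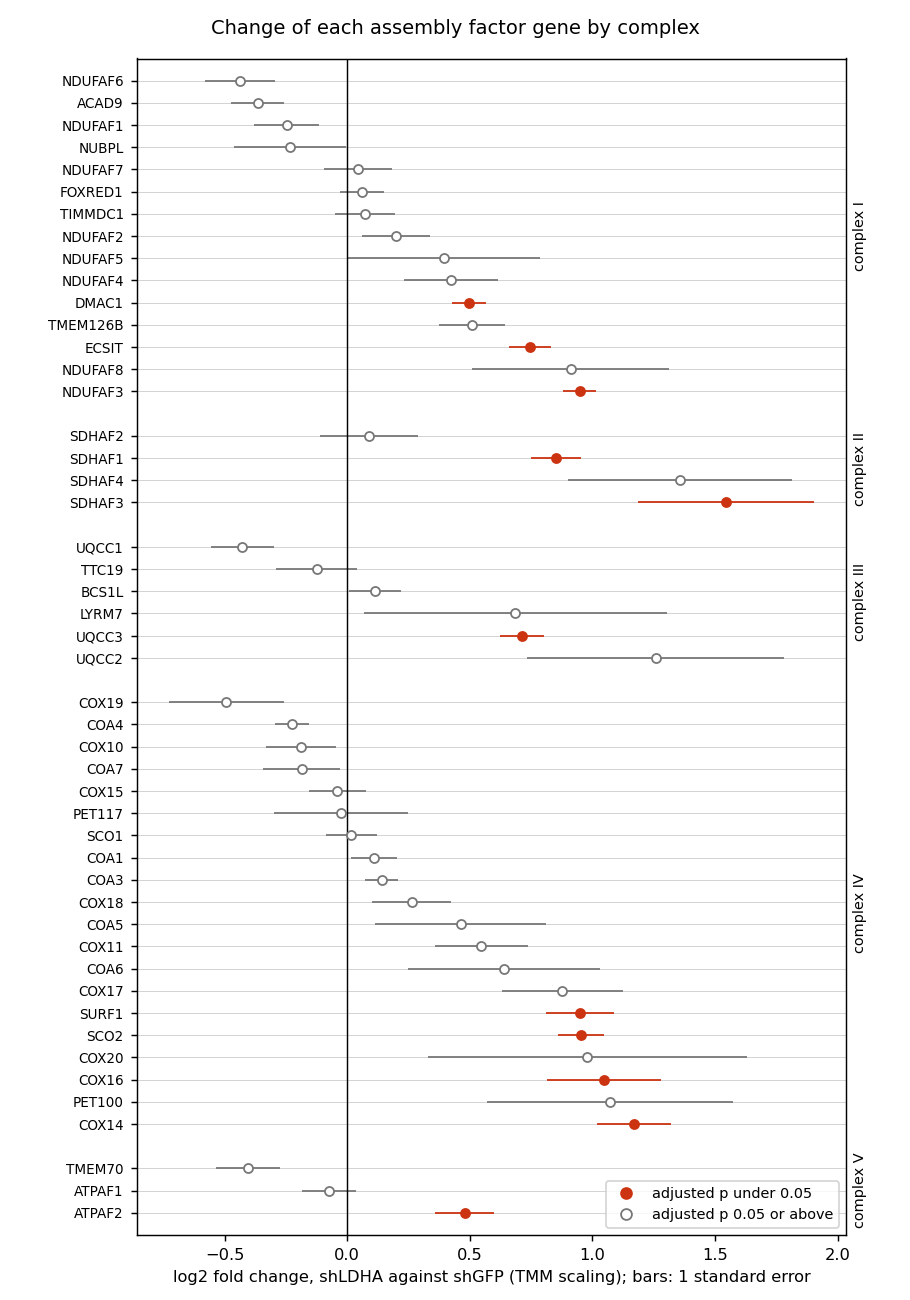
Log2 fold change of each of the 48 assembly factor genes, shLDHA against shGFP, by complex, after TMM scaling. Bars are 1 standard error, and filled red points passed an adjusted p under 0.05. The 11 filled points all lie to the right of 0, where DMAC1 and ATPAF2 do not stay at equal library totals, and members such as COX20 and UQCC2 with large changes have wide bars.

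The start regions of 4 members are shown, because 2 of them rose (COX14 and SDHAF3) and 2 did not pass the threshold (COX10 and SCO1). Each carries known promoter letters, which are the same motif in COX10 and SCO1. Each is 130 bases from RefSeq (GRCh38.p14), running past the transcript start by 5 bases, 5′ to 3′ on the strand of the gene, and capitals mark the match. The COX14 stretch (chr12:50112111-50112240, plus strand) holds an E-box. In the SDHAF3 stretch (chr7:97117573-97117702, plus strand) the capitals mark the short form of the NRF1 motif. The COX10 stretch (chr17:14069379-14069508, plus strand) has the ETS motif at 2 places, and the SCO1 stretch (chr17:10697529-10697658, minus strand) has it on the opposite strand.
COX14: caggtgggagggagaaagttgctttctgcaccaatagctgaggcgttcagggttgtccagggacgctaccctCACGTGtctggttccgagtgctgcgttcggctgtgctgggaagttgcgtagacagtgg
SDHAF3: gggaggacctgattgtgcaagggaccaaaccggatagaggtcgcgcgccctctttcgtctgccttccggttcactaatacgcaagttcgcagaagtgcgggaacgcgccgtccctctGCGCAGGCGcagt
COX10: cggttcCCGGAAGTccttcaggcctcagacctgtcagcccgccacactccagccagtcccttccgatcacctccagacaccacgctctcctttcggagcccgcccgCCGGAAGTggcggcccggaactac
SCO1: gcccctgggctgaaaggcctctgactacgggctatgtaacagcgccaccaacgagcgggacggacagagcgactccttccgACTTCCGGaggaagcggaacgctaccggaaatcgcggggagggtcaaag

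Windows of 250 bases before to 50 bases after the start were at hand for 42 of the 48 members, 57 windows in all, 9 of the genes being among those that rose. The ETS motif CCGGAAGT was in 10 of the 57 windows (17.5%), against 4.14% of 35116 windows of all genes. It was found in none of the 9 genes that rose and in 10 of the 33 that did not pass. NRF1 is a known regulator of genes for mitochondrial proteins. The full NRF1 motif GCGCATGCG was in 7.02% of the members' windows against 1.92% of all windows, and the short form GCGCANGCG, which includes the full one, in 17.5% against 7.52%. YY1 (AAGATGGC) was in 8.77% against 2.89%, the E-box CACGTG in 8.77% against 7.26%, the estrogen-related receptor motif AAGGTCA in 5.26% against 3.92%, CREB (TGACGTCA) in 3.51% against 1.85% and the ATF4 element TGATGNAA in 1.75% against 3.62%. The split between genes that rose and genes that did not pass was 0 and 3 for the full NRF1 motif and 1 and 8 for its short form. It was 1 and 3 for YY1, 2 and 3 for the E-box and 1 and 1 for the estrogen-related receptor motif. CREB gave 0 and 2, and ATF4 gave 0 and 1. None of the splits, that of ETS included, was tested. The windows of all genes were not limited to genes that passed the FPKM filter, as the members did. The share among tested genes was not computed. Both strands were searched, and a match describes letters only, with no measurement of binding in these data.

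**Figure D2:**
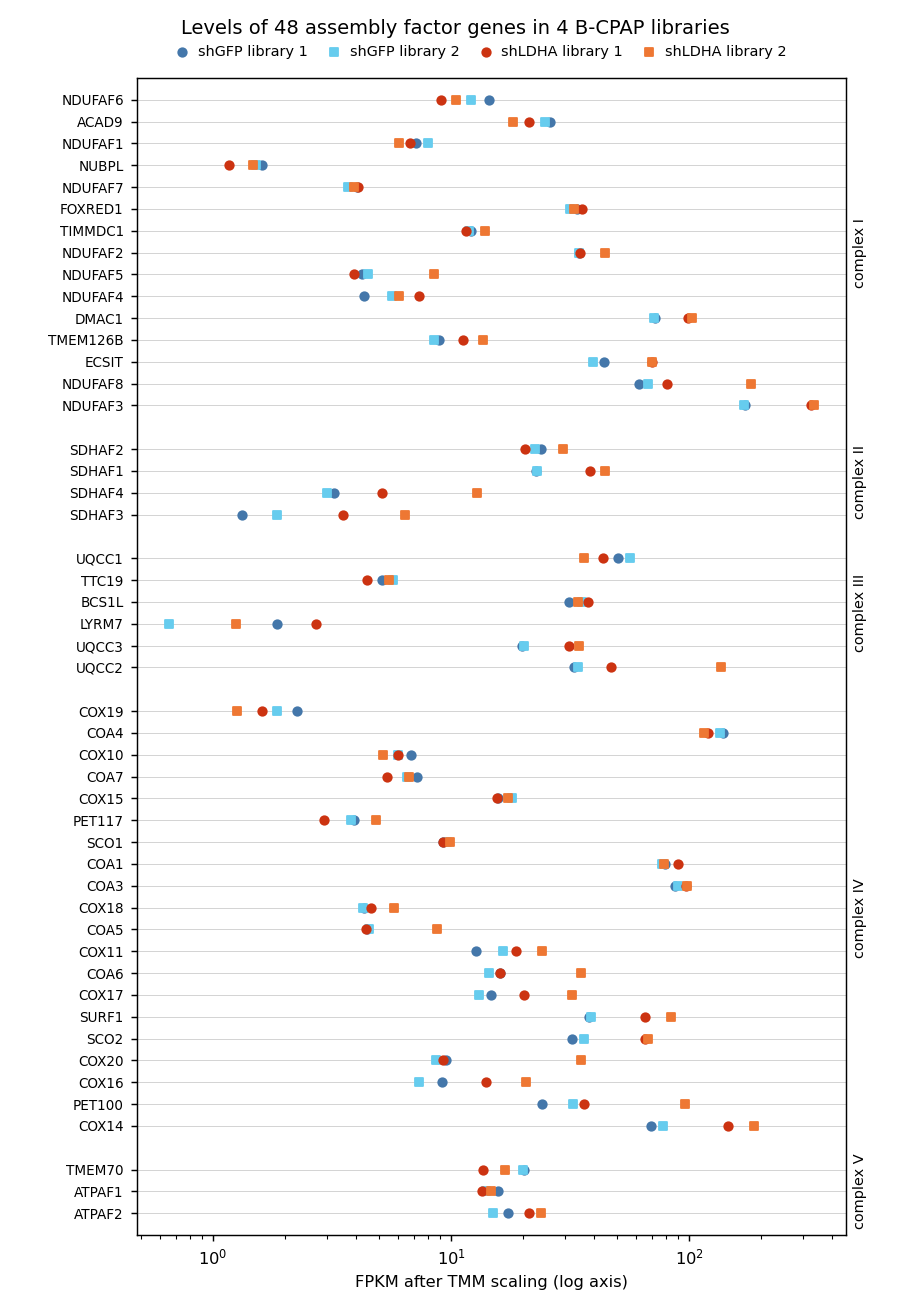
FPKM after TMM scaling, on a log axis, of the 48 members in each of the 4 libraries, grouped by complex and ordered by fold change. NDUFAF3 is highest in the control, at 170.6 on average, and the 2 red and orange markers lie well apart for UQCC2, COX20 and PET100.

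Complex I, which oxidizes NADH, has the longest assembly line. Of its 15 factors, 3 rose, against 18.1% of all tested rows. The median log2 fold change was 0.20, which became -0.14 without scaling, -0.32 at equal totals and -0.03 with length offsets. It was 0.29 without knockdown library 1 and 0.07 without knockdown library 2. NDUFAF3, which with NDUFAF4 binds the early module where ubiquinone is reduced, was the most abundant member of all 48, at 171 and 169.9 FPKM after scaling in the control pair, and 324 and 335 in the knockdown libraries. The groups were well separated, with a log2 fold change of 0.95 (SE 0.07, limma adjusted p = 0.00761). NDUFAF3 lies at chr3:49057892-49060928 (GRCh37, plus strand, 5 exons) and shares exon sequence with DALRD3 on the opposite strand. Whether the counting used strand is not given, so reads of the 2 genes cannot be told apart there. NDUFAF4 was at 4.31 and 5.62 in the control and 7.30 and 6.04 in the knockdown, both knockdown libraries above both controls, but its change of 0.42 did not pass (adjusted p = 0.159).

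ECSIT and DMAC1 act on the membrane arm of complex I. ECSIT belongs to the MCIA complex, the membrane arm assembly platform, and was at 43.97 and 39.4 FPKM in the control and 70.0 and 69.6 in the knockdown. It rose by 0.75 on the log2 scale (SE 0.09, limma adjusted p = 0.0110). DMAC1, a factor of the distal membrane arm, was at 71.8 and 71.4 in the control and 99.2 and 103 in the knockdown, a rise of 0.50 (SE 0.07, limma adjusted p = 0.0144) that was -0.02 at equal totals. In both genes the spread within each group was small beside the gap between groups. ECSIT lies at chr19:11616744-11639987 (GRCh37, minus strand) and DMAC1 at chr9:7796500-7888380 (GRCh37, minus strand). With offsets for transcript length and GC content, the change of ECSIT was 0.08 and no longer passed (adjusted p = 0.522).

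None of the other factors of the MCIA platform passed the threshold. ACAD9, an acyl-CoA dehydrogenase that also works in assembly, was at 25.9 and 24.9 FPKM in the control and 21.2 and 18.3 in the knockdown (log2 fold change -0.36, adjusted p = 0.0669). NDUFAF1 gave -0.25 and TIMMDC1 0.07, and TMEM126B gave 0.51 with an adjusted p of 0.0515. NDUFAF6, needed early for the membrane subunit ND1, had the lowest fold change of complex I. Its level was 14.5 and 12.1 in the control and 9.08 and 10.5 in the knockdown, a log2 fold change of -0.44 that did not pass (SE 0.14, limma adjusted p = 0.0822). NDUFAF8 and its partner NDUFAF5, a hydroxylase of NDUFS7, had fold changes of 0.91 and 0.39 with standard errors of 0.40 and 0.39, because knockdown library 2 was far above knockdown library 1. The late factors FOXRED1 and NDUFAF2 gave 0.06 and 0.20, the methyltransferase NDUFAF7 gave 0.04 and NUBPL, an iron-sulfur protein of complex I assembly, gave -0.23.

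Complex II, which oxidizes succinate, has 4 dedicated factors, and 2 of them rose (against 18.1% of all tested rows). Both are LYR proteins that guard the iron-sulfur subunit SDHB before it meets its partner. SDHAF1 was at 22.7 and 22.9 FPKM in the control and 38.3 and 44.4 in the knockdown, a rise of 0.85 on the log2 scale (SE 0.10, limma adjusted p = 0.0117). SDHAF3 was a low gene, at 1.32 and 1.85 in the control and 3.51 and 6.41 in the knockdown. Its rise of 1.54 (SE 0.36, limma adjusted p = 0.0393) was the largest fold change of the set, although the knockdown libraries differed from each other by a factor of 1.83. SDHAF1 is a gene of 1 exon at chr19:36486090-36487214 (GRCh37, plus strand) and SDHAF3 lies at chr7:96747010-96811075 (GRCh37, plus strand).

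The flavin factors of complex II did not pass. SDHAF2, which helps attach the flavin to SDHA, was at 23.8 and 22.5 FPKM in the control and 20.4 and 29.6 in the knockdown, with overlapping groups and a log2 fold change of 0.09 (95% interval -0.44 to 0.62). SDHAF4, which binds the flavinated SDHA, was at 3.21 and 3.02 in the control and 5.14 and 12.8 in the knockdown (1.36, SE 0.46, limma adjusted p = 0.0864). The median of the 4 genes was 1.10, with 0.73 without knockdown library 2, 1.46 without knockdown library 1 and 0.59 at equal totals. Of the 4, 2 passed a limit of 5 FPKM, and their median was 0.47. SDHAF1 is rich in G and C, and with offsets for length and GC content its change was -0.03. Length offsets alone left it at 0.40, which still passed the threshold (limma adjusted p = 0.0263).

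Complex III passes electrons from ubiquinol to cytochrome c, and 1 of its 6 factors rose, against 18.1% of all tested rows. UQCC3, which stabilizes newly made cytochrome b, was at 19.8 and 20.3 FPKM in the control and 31.4 and 34.6 in the knockdown. The rise was 0.71 on the log2 scale (SE 0.09, limma adjusted p = 0.0125). UQCC3 lies at chr11:62437745-62441158 (GRCh37, plus strand, 2 exons) and overlaps LBHD1 on the opposite strand. UQCC1, the first factor to bind nascent cytochrome b together with UQCC2, lay on the lower side, at 50.3 and 56.6 in the control and 43.6 and 36.1 in the knockdown, with a log2 fold change of -0.43 that did not pass (adjusted p = 0.0690).

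UQCC2 had the highest fold change of complex III, at 32.7 and 34.0 FPKM in the control and 46.8 and 136.4 in the knockdown (1.26, SE 0.53, limma adjusted p = 0.135). Its 2 knockdown libraries differed more from each other than the lower of them did from the controls. The factors for the Rieske iron-sulfur protein, which is inserted late, had overlapping groups. BCS1L, its translocase, gave 0.11 (95% interval -0.17 to 0.40), its chaperone LYRM7 gave 0.69 with a standard error of 0.62 at levels of 0.651 to 2.71 FPKM, and TTC19 gave -0.12. The median of the 6 genes was 0.40, and -0.11 at equal totals. It was 0.10 without control library 2 and also without knockdown library 1.

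Complex IV, cytochrome c oxidase, needs hemes and copper in its catalytic subunits. Of its 20 factors, 4 rose, against 18.1% of all tested rows, with a median of 0.36 over all of the factors (-0.15 at equal totals). The median was 0.57 without knockdown library 1 and 0.09 without knockdown library 2. Among the factors of the subunit COX1, COX14, which holds newly made COX1, was at 69.1 and 78.0 FPKM in the control and 145.9 and 187.5 in the knockdown. Its rise of 1.17 on the log2 scale (SE 0.15, limma adjusted p = 0.0129) was the largest of complex IV. SURF1, which acts in the maturation of COX1 and whose loss causes Leigh syndrome, was at 37.9 and 38.7 in the control and 65.4 and 83.8 in the knockdown. It rose by 0.95 (SE 0.14, limma adjusted p = 0.0157). COA3, which works beside COX14, was at 86.8 and 89.4 in the control and 96.7 and 97.7 in the knockdown, a log2 fold change of 0.14 with a 95% interval of -0.04 to 0.32. COX14 lies at chr12:50505865-50514240 (GRCh37, plus strand, 2 exons) and SURF1 at chr9:136218613-136223552 (GRCh37, minus strand, 9 exons).

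The copper route gave 1 call among 6 genes, against 18.1% of all tested rows called higher. SCO2, which brings copper to the subunit COX2, was at 32.1 and 36.3 FPKM in the control and 64.9 and 67.3 in the knockdown, a rise of 0.95 on the log2 scale (SE 0.09, limma adjusted p = 0.00897). Its paralog SCO1, which takes part in the same step, was at 9.26 and 9.63 in the control and 9.21 and 9.92 in the knockdown. The log2 fold change of SCO1 was 0.02 with a 95% interval of -0.26 to 0.30. SCO2 lies at chr22:50961997-50964890 (GRCh37, minus strand) and overlaps NCAPH2 on the opposite strand. A second row of the same symbol, at 2.19 to 4.76 FPKM, gave 0.63 and did not pass (adjusted p = 0.185). With offsets for length and GC content the change of SCO2 was 0.02 (adjusted p = 0.899) and that of SCO1 0.49, past the threshold (adjusted p = 0.0419), so the order of the paralogs turned round. SURF1, at 0.39, also missed the threshold (adjusted p = 0.0607).

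COX17 delivers copper to SCO1, SCO2 and COX11. It was at 14.8 and 13.0 FPKM in the control and 20.3 and 32.3 in the knockdown. The log2 fold change of 0.88 did not pass (limma adjusted p = 0.0591). COX11, which serves the copper site of COX1, gave 0.55 and COA6, which works with the SCO proteins, 0.64, with standard errors of 0.19 and 0.39. COX19 had the lowest fold change of complex IV, at 2.25 and 1.85 in the control and 1.60 and 1.26 in the knockdown (-0.49, SE 0.23, limma adjusted p = 0.173). Neither of the heme A enzymes passed. COX10, the heme O synthase, gave -0.19 (95% interval -0.57 to 0.20) and COX15, the heme A synthase, -0.04 (95% interval -0.35 to 0.27).

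Of the factors of COX2 itself, COX16 rose. Its level was 9.11 and 7.31 FPKM in the control and 14.02 and 20.6 in the knockdown, with a log2 fold change of 1.05 (SE 0.23, limma adjusted p = 0.0353). COX16 lies at chr14:70791798-70883701 (GRCh37, minus strand) and shares exons with the read-through gene SYNJ2BP-COX16, so its value is uncertain. COX20, a chaperone of COX2, was at 9.54 and 8.66 in the control and 9.27 and 35.0 in the knockdown, so that its change of 0.98 rested on knockdown library 2. COX18, which moves a tail of COX2 through the membrane, gave 0.26. Among the remaining factors, PET100 gave 1.07 with a standard error of 0.50, COA5 0.46, PET117 -0.03, COA7 -0.19 and COA4 -0.22, and COA1 of the COX1 group gave 0.11.

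Complex V had 3 listed factors, of which 1 rose, against 18.1% of all tested rows. Their median was -0.07, which was 0.05 with length offsets and ran from -0.16 to 0.01 when 1 library was left out. ATPAF2, a chaperone of the alpha subunit of the F1 part, was at 17.3 and 15.0 FPKM in the control and 21.2 and 23.9 in the knockdown. Its rise of 0.48 on the log2 scale (SE 0.12, limma adjusted p = 0.0464) was the smallest of the 11, and at equal totals it was -0.04. ATPAF1, the chaperone of the beta subunit, was at 15.8 and 14.03 in the control and 13.5 and 14.7 in the knockdown. The log2 fold change of ATPAF1 was -0.07 with a 95% interval of -0.37 to 0.22. TMEM70, which helps form the ring of c subunits, was at 20.2 and 20.0 in the control and 13.7 and 16.9 in the knockdown, and its change of -0.40 did not pass (SE 0.13, limma adjusted p = 0.0798). ATPAF2 lies at chr17:17880723-17942523 (GRCh37, minus strand, 8 exons). With offsets for length it was at 0.16 and lost its call (adjusted p = 0.355).

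Ratios of 2 genes within a library do not depend on scaling between libraries, but they do depend on length and GC trends. The ratios of 12 pairs were computed, picked after their values were seen, as a description with no test. Both knockdown ratios lay above both control ratios in 10 pairs, below them for SDHAF1 over SDHAF3, and overlapped them for COX15 over COX10. Many pairs set a member with a higher fold change over a partner with a lower one, so this count largely follows from their choice. No share over other pairs of genes was computed. The ratio of SCO2 to SCO1 was 3.46 and 3.77 in the control pair, and 7.05 and 6.79 in the knockdown libraries. That of ECSIT to ACAD9 was 1.69 and 1.58 in the control and 3.30 and 3.81 in the knockdown. COX14 stood below COA3 in both control libraries, at ratios of 0.796 and 0.872, and above it in both knockdown libraries, at 1.51 and 1.92. UQCC3 over UQCC1 went from 0.394 and 0.358 to 0.720 and 0.959, and ATPAF2 over ATPAF1 from 1.10 and 1.07 to 1.56 and 1.62. With length offsets the log2 difference between the partners' fold changes was 0.07 for SCO2 and SCO1 and 0.11 for ATPAF2 and ATPAF1. It was 0.11 for NDUFAF3 and NDUFAF4 and 0.19 for COX16 and COX18. With length and GC offsets these were, in the same order, -0.48, -0.12, -0.10 and 0.32. ECSIT and ACAD9 (0.41), COX14 and COA3 (1.03) and UQCC3 and UQCC1 (0.87) kept their direction there.

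The factors were set beside the proteins they assemble. Of 77 nuclear-encoded subunit genes of the chain that were tested (79 listed), 39 rose and none fell (limma; 58 higher and 0 lower at an unadjusted p under 0.05), with a median log2 fold change of 0.69. The shares over all rows were 18.1% higher and 12.9% lower. The subunit median was 0.35 without scaling, 0.17 at equal totals, 0.25 with length offsets and 0.31 with length and GC offsets. By complex the subunit median was 0.73 for I, 0.07 for II, 0.69 for III, 0.82 for IV and 0.65 for V. The factor median was below the subunit median for complexes I, III, IV and V, and above it for complex II (1.10 from 4 genes). With length offsets the gap narrowed over all genes, to 0.19 for the factors and 0.25 for the subunits. By complex the factor and subunit medians were then -0.03 and 0.28 for I, 0.66 and -0.23 for II, 0.19 and 0.27 for III, 0.33 and 0.41 for IV, and 0.05 and 0.14 for V. On the log2 level scale, the factor median minus the subunit median was -3.08 and -3.26 in control libraries 1 and 2, and -3.76 and -3.70 in knockdown libraries 1 and 2. These lists were written with earlier results of these data known. The subunit genes are short, with a median transcript length of 763 bases against 1756 for the factors.

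**Figure D3:**
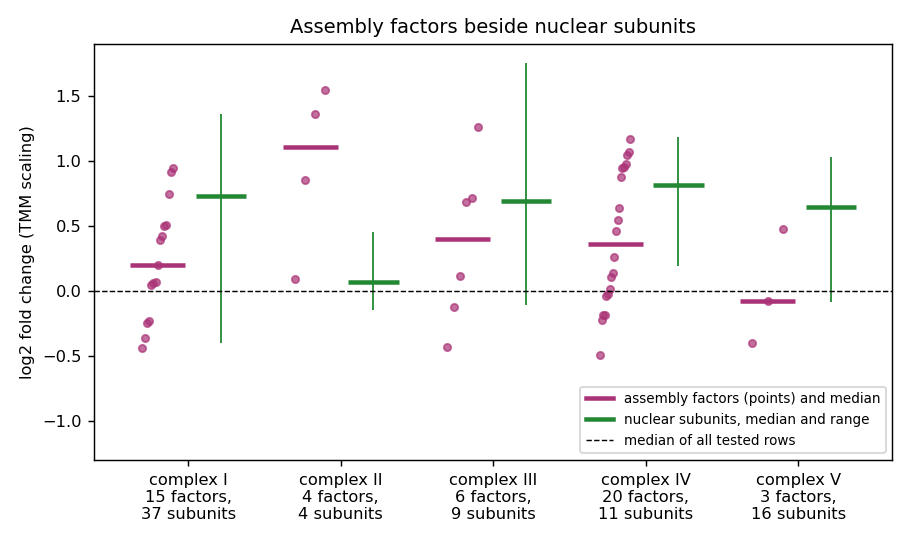
Log2 fold change after TMM scaling of the assembly factors (points, with their median as a thick bar) and of the nuclear subunits of the same complex (median as a thick bar, range as a thin line). The subunit median is above the factor median for complexes I, III, IV and V and below it for complex II.

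Other genes of assembly and of cofactor supply were mixed, where 18.1% of all tested rows rose and 12.9% fell. Of 22 further assembly genes 18 were tested, 4 rose (among them HIGD2A, a factor of complex IV, by 0.75 on the log2 scale, and PNKD by 0.66) and 1 fell (TIMM21, by 0.58), with a median of 0.17 that was -0.15 without scaling. Of 15 genes of iron-sulfur cluster supply, 6 rose, among them FDXR, the ferredoxin reductase, by 0.93 and NFU1, a cluster carrier, by 0.92, and 1 fell, HSPA9, a mitochondrial chaperone, by 0.49. Heme synthesis had 1 rise and 1 fall among 10 genes, PPOX by 0.83 and FECH, the enzyme that puts iron into heme, by 0.63 downward. Of 4 tested genes of copper supply, 2 rose: CCS by 0.82 and ATOX1 by 0.61. The median was 0.45 for the iron-sulfur genes, -0.15 for the heme genes and 0.34 for the copper genes. At equal totals these were -0.07, -0.67 and -0.18, and with length offsets 0.01, -0.29 and 0.18.

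The 2 knockdown libraries did not give the same value for every member. Knockdown library 2 was at least 2-fold above knockdown library 1 in 7 members (14.6%), against 4.94% of all tested rows, and the reverse held for 1 member, LYRM7. The 7 were NDUFAF5, NDUFAF8, SDHAF4, UQCC2, COX20, COA6 and PET100, of which COX20 had the largest ratio, 3.78. In the control pair, library 2 was at least 2-fold above library 1 in no member, against 3.02% of all rows, and library 1 above library 2 in 1, LYRM7 again. Over the members, the libraries of the control pair differed by a median of 0.13 (absolute log2), and those of the knockdown pair by 0.29. None of the 7 passed the threshold with all libraries.

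**Figure D4:**
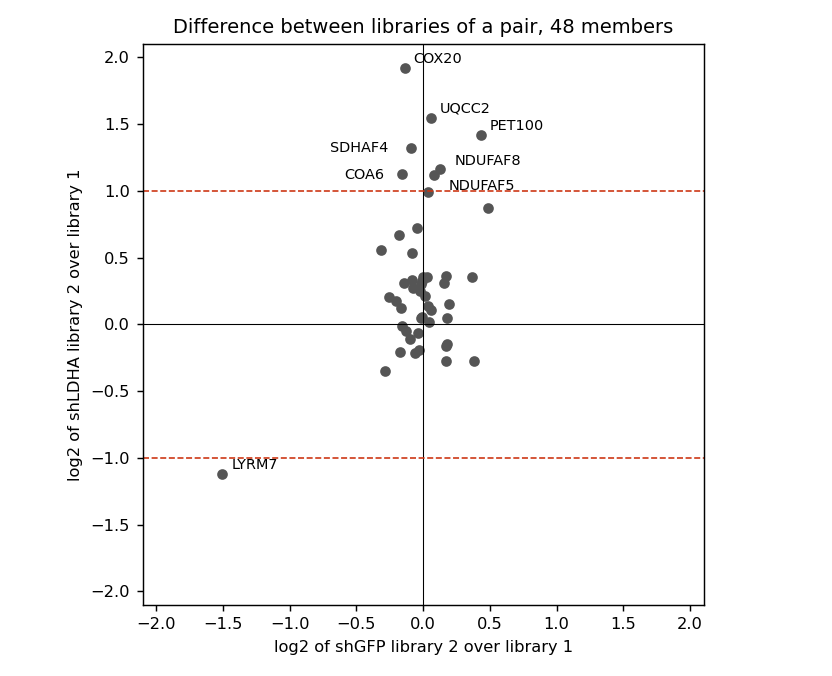
For each of the 48 members, the log2 ratio of control library 2 over 1 (horizontal) and of knockdown library 2 over 1 (vertical), with dashed lines at a 2-fold difference. The 7 labelled genes above the upper line differ between the knockdown libraries while their control libraries are close, and LYRM7 is at the lower left.

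The direction of the set depended on the scaling, which moved all rows together. Without scaling, the median of all tested rows was -0.33, and the members gave 6 rises (6.80% of all rows were higher) and 5 falls (23.4% lower), with a median of -0.007. The 6 were COX14, NDUFAF3, SCO2, SDHAF1, SDHAF3 and SURF1, and the 5 that fell were ACAD9, COA4, NDUFAF6, TMEM70 and UQCC1. At equal library totals (TPM), 4 rose (4.57% of all rows) and 10 fell (34.0% of all rows), with a member median of -0.18. COX14, NDUFAF3, SDHAF3 and SURF1 rose under TMM, without scaling and at equal totals. Of all calls in the table, 58.5% were higher under TMM, 43.5% under upper quartile scaling, 22.5% without scaling and 11.9% at equal totals.

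Transcript length also moved with the result. Across genes, Spearman's rho of the log2 fold change with length was -0.41 over the 11919 tested rows with a length and -0.47 over the 48 members, which share the same 4 libraries. The 11 members shorter than 1000 bases had a median of 0.91 and 4 rises, the 17 of 1000 to 2000 bases a median of 0.51 and 6 rises, and the 20 longer ones a median of -0.01 and 1 rise. Over all rows in the same bands, the medians were 0.57, 0.30 and -0.16, and 37.9%, 32.5% and 12.4% rose. With offsets that remove the length trend from each library, 8 members rose (15.5% of all rows) and 8 fell (13.0% of all rows), and the member median was 0.19. COX14, DMAC1, ECSIT, NDUFAF3, SCO2, SDHAF1, SURF1 and UQCC3 kept their calls there, and ATPAF2, COX16 and SDHAF3 lost theirs.

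**Figure D5:**
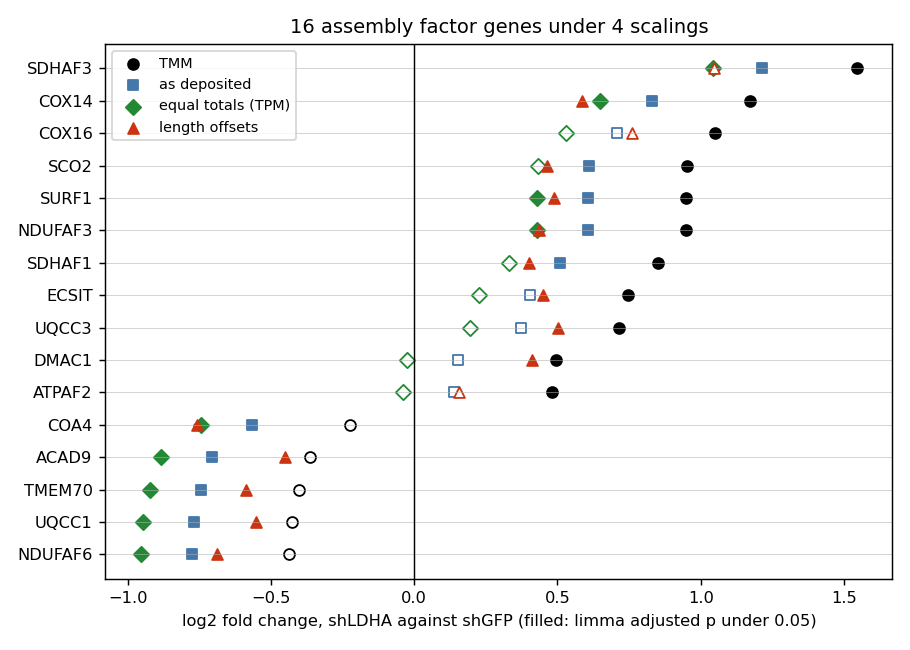
Log2 fold change of the 11 members that rose and of the 5 that fell without scaling, under TMM, as deposited, at equal totals (TPM) and with length offsets. Filled symbols passed an adjusted p under 0.05. COX14, NDUFAF3 and SURF1 are filled throughout. The lower 5 are filled under all but TMM, which for the values as deposited follows from the choice of these genes.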

How the data were processed

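RNA-Seq of 4 B-CPAP libraries (2 shGFP, 2 shLDHA) was used. The deposited table is labelled as raw counts, but its values behave as FPKM, and the authors' unit was inferred from them. The study's methods name STAR on hg19, HTSeq and TMM, whereas HISAT2 and hg38 stand in the submitters' processing notes, so the build of the table is not settled. Neither source gives the strand setting.

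Of 59108 rows, 224 without a name and 27 named as dates were left out. The 13291 rows that reached 0.5 FPKM in 2 or more libraries were scaled by an unweighted TMM, with 30% of M and 5% of A trimmed on either side. limma 3.58.1 in R 4.3.3 was run on log2(FPKM + 0.1), with a variance trend and Benjamini-Hochberg adjustment over all rows. A fold change on this scale understates that of low genes. There were 2 residual degrees of freedom, and an exact permutation test of 2 against 2 cannot go below p = 0.333. The fit was tested on simulated data.

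Fragment depth was read from the steps of low FPKM values. The search had an upper limit, because a doubled depth gives whole fragment numbers too. At the depths chosen, 81.6% to 86.9% of those values came within 0.15 of a whole fragment number. Depths are therefore approximate, and no counts were tested. Lengths and gene positions are from GENCODE version 44 on GRCh37. By exons, 18 members overlap another gene, 13 of them on the opposite strand, and 7 members have named pseudogenes. Of the 11 that rose, NDUFAF3, UQCC3 and SCO2 overlap on the opposite strand, COX14 and ATPAF2 on the same strand, and COX16 on both. Promoter windows are from RefSeq (GRCh38.p14).

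The members and lists were chosen with earlier results of these data known. Named genes are LDHA, members with an adjusted p under 0.05, the highest and lowest member of each complex, and up to 2 genes per direction of each related list; ratio pairs and other members were named after their values were seen. Alternatives were other scalings, pseudocounts and filters, a replicate block, length and GC offsets, no variance trend, and leaving out each library. A planned thyroid marker is not reported here.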

Additional observations from a re-analysis of the deposited data

How the results depend on the processing

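The counts of members that rose (11) and fell (0) and their median (0.33) changed as follows. Without scaling, 6 rose and 5 fell with a median of -0.0074, and at equal library totals 4 rose and 10 fell with a median of -0.18. Under upper quartile scaling 10 rose (14.3% of all rows) and 5 fell (18.5%). With length offsets 8 fell (13.0%), and with length and GC offsets (10.1%) or a limit of 5 FPKM (18.6%) 1 each. At that limit 12 of 40 members rose, against 29.9% of all rows. The member median there was 0.41, against 0.096 over all rows. With length and GC offsets 9 rose (10.5% of all rows), of which 6 were shared with the 11, 5 calls were lost and COX17, COX18 and SCO1 were gained. Leaving out 1 library at a time, the number that rose ran from 0 to 23, the number that fell from 0 to 3, and the LDHA change from -2.52 to -2.37, whose adjusted p was 0.145 and 0.130 without control library 1 and 2 and under 0.05 otherwise. In the fits without a library, the lone library is assumed to vary like the other group. The cause of these shifts was not tested. Changed direction was seen at equal totals for ATPAF2 (-0.039) and DMAC1 (-0.024), with length and GC offsets for SDHAF1 (-0.027), and for SDHAF2, which did not pass in any of these fits, at -0.25 without scaling, -0.036 under upper quartile scaling, -0.43 at equal totals, -0.34 with length offsets, -0.11 with length and GC offsets and -0.18 without knockdown library 2 (0.36 without knockdown library 1, past the threshold). With the replicate number as a replicate block 11 rose and 0 fell, against 16.6% and 9.28% of all rows. Of the 11 main calls 10 were shared, with COX11 gained and ATPAF2 lost. Same-numbered libraries deviated together only weakly (correlation 0.12), and with 2 pairs the numbers do not pair the samples. Pseudocounts of 1 and 0.01 kept all 11 calls, against 18.2% and 17.8% of all rows higher. With no filter 8 of the 11 were left (7.47% of all rows higher), and with no variance trend also 8 (13.1%).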
